A study of Homo sapiens and Homo sapiens
Mus with 12 samples.

Results

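Bladder cancer cells of the UM-UC-3 line, derived from a human urothelial carcinoma, were compared with and without knockdown of CDH11, a cell-cell adhesion cadherin, and 10 genes of the ATF4 amino acid stress response were followed: ATF4, DDIT3, DDIT4, TRIB3, CHAC1, SESN2, ASNS, PSAT1, PHGDH and SHMT2. The genes were chosen by name as members of that response, with earlier results of these data in view. All 10 were found among the 21479 human genes listed for the cultured cells and among the 26813 listed for the tumors. Every cell line carried a GIPZ lentiviral vector with GFP and had been sorted for GFP, so the control (shCtrl, a nonsilencing hairpin) shared the vector and the sort with the CDH11 KD lines sh#1 and sh#2, which express 2 different hairpins. RNA was taken from 3 libraries per line after 24 h of preculture, and from 5 subcutaneous xenograft tumors per line, grown in male BALB/cAJcl-nu/nu (nude) mice that were inoculated at 5 weeks of age and sampled at 4 weeks. The labels do not say whether the 3 libraries of a line were separate cultures, so p-values for cultured cells measure the spread between these libraries. In fits that pool sh#1 and sh#2 as CDH11 KD, the spread within that group also holds the difference between the hairpins. Knockdown is represented by these 2 lines and the control by shCtrl alone. The tumors hold mouse host tissue, whose reads were counted in a table of their own. Each tumor group was sequenced in a library mix of its own, so mix and group cannot be told apart in the tumors.

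The integrated stress response slows general translation when a kinase that senses amino acid shortage, unfolded protein, haem loss or viral RNA phosphorylates the initiation factor eIF2, while the mRNA of the transcription factor ATF4 is translated more. ATF4, often paired with C/EBP proteins, then raises genes that make, import and charge amino acids, genes that restrain the growth kinase complex mTORC1, and feedback genes such as TRIB3. ATF4 is controlled in large part at translation, so its mRNA level is only a part of its activity, and no protein was measured here.

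ATF4 and C/EBP proteins bind a composite element whose core is TGATGNAA, and the promoters with this core are shown because they carry the nearest sequence feature of the response. RefSeq windows on GRCh38.p14, reaching from 250 bases before to 50 bases after a transcription start, were found for 9 of the 10 genes (14 windows), and SHMT2 had none. TGATGNAA was searched on both strands and was in 3.62% of all 35116 windows. It was in windows of 2 of the 9 genes, ASNS and CHAC1, against 4.46% of all 27305 genes with a window, and not in these windows of ATF4, DDIT3, DDIT4, TRIB3, SESN2, PSAT1 or PHGDH. A match is a description of the letters and no evidence of binding. The ASNS window lies on the minus strand at chr7:97872359-97872658, with the match (capitals) from 68 to 61 bases before the start. The CHAC1 window lies on the plus strand at chr15:40953221-40953520, and its match, TGATGCAA on the opposite strand, appears reversed and complemented in capitals from 209 to 202 bases before the start.
ASNS: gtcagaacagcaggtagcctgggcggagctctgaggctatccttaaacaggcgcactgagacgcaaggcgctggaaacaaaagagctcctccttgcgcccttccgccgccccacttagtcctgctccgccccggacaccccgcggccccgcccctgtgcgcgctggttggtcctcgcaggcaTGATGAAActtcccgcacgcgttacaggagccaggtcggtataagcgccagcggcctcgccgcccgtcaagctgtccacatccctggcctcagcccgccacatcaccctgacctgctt
CHAC1: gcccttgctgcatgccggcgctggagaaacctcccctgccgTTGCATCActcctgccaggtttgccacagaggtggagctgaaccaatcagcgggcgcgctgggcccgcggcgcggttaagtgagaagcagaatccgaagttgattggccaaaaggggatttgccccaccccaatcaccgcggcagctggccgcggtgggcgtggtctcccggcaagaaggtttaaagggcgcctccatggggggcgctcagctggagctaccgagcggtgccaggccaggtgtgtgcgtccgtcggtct

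Libraries of cultured cells held 2273182 to 2777019 counts and tumors held 414849 to 1248977 human counts, with 94406 to 220238 mouse counts beside them. CDH11 itself was near the detection limit in cultured cells: the shCtrl libraries had 2, 4 and 4 counts, sh#1 had 0, 0 and 1, and sh#2 had 1, 2 and 0, which is too few to test. In tumors CDH11 had a mean of 16.6 ± 7.65 (SD, n = 5) normalized CPM in shCtrl, 4.99 ± 3.18 in sh#1 and 10.1 ± 5.72 in sh#2. It passed the threshold for sh#1 (log2 fold change -1.67, q = 0.026) and not for sh#2 (-0.73, q = 0.35) or for both together (-1.13, q = 0.11). Mouse Cdh11 in the same tumors had 9 to 30 counts in shCtrl, 1 to 28 in sh#1 and 7 to 30 in sh#2, with a log2 fold change of -0.98 (q = 0.58) for sh#1. Human CDH11 had 5 to 32, 1 to 9 and 2 to 14 counts, and how far reads of the 2 species are mixed in these values was not tested. Of the markers of the line, VIM, CD44, KRT8 and KRT18 were abundant in all 9 cultured libraries, whereas the urothelial keratins KRT7 (5 to 14 counts) and KRT19 (0 to 3 counts) were near absent. PTPRC and PECAM1, which mark leukocytes and endothelium, were at 0.

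In cultured cells 7 of the 10 genes rose with CDH11 KD and none fell, where q, the p-value of edgeR's quasi-likelihood test adjusted by Benjamini-Hochberg over all 9859 genes tested, had to be under 0.05. In the same comparison 9.12% of all genes tested were called higher and 8.32% lower. The 10 genes had a median log2 fold change of 0.84 (0.85 without CHAC1), against 0.00 over all genes tested. DDIT4, DDIT3 and SESN2 rose most, between 4.07-fold and 6.88-fold, and ASNS, TRIB3, ATF4 and PHGDH rose between 1.56-fold and 2.21-fold. DESeq2 also called 7 of the genes. Values per library below are normalized CPM, counts scaled to library sizes adjusted by TMM. They carry no correction for gene length, so genes are compared with themselves only. Where groups are said below not to overlap, the share of all genes tested that do the same was not counted.

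ATF4 (chr22:39519695-39522683, plus strand; all positions are of hg38 gene annotation GENCODE 44) measured 247, 293 and 248 normalized CPM in shCtrl. It measured 412, 477 and 519 in sh#1 and 454, 473 and 475 in sh#2. Each CDH11 KD library was above every shCtrl library, and the hairpins overlapped each other. The rise was 1.78-fold (95% interval 1.56 to 2.04, q = 8.66e-06) for both hairpins together. Taken singly, the log2 fold changes were 0.84 ± 0.07 (SE) for sh#1 and 0.83 ± 0.07 for sh#2, with a difference of 0.01 (95% interval -0.14 to 0.15).

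DDIT3 (chr12:57516588-57521737, minus strand) encodes CHOP, a C/EBP-family factor that ATF4 induces and that is linked to cell death under lasting stress. It measured 26.8, 24.2 and 26.7 normalized CPM in shCtrl, 98.4, 106 and 93.7 in sh#1 and 156, 173 and 177 in sh#2. The 3 groups did not overlap, and sh#2 was the highest. DDIT3 rose 5.14-fold with CDH11 KD (95% interval 3.42 to 7.73, q = 0.000189), 3.82-fold with sh#1 and 6.50-fold with sh#2. The hairpins differed in DDIT3, by -0.77 ± 0.09 (SE) on the log2 scale for sh#1 against sh#2 (q = 9.31e-10).

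TRIB3 (chr20:362835-397559, plus strand) is a pseudokinase that ATF4 and CHOP induce and that restrains ATF4 in return. It measured 15.7, 16.4 and 15.2 normalized CPM in shCtrl, 29.9, 37.8 and 27.5 in sh#1 and 27.1, 21.5 and 27.3 in sh#2. All 6 CDH11 KD libraries were above shCtrl, from counts of 40 in each shCtrl library and 45 to 87 in the others. TRIB3 rose 1.81-fold (95% interval 1.39 to 2.34, q = 0.0033), and the difference between hairpins was 0.32 (95% interval -0.02 to 0.65, q = 0.16).

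DDIT4 (chr10:72273919-72276036, plus strand) encodes REDD1, which restrains mTORC1 through the TSC complex and also answers hypoxia and glucocorticoids. It measured 64.9, 86.1 and 84.6 normalized CPM in shCtrl, 598, 637 and 589 in sh#1 and 483, 493 and 444 in sh#2. The groups did not overlap. Its rise was 6.88-fold (95% interval 5.60 to 8.45, q = 6.32e-10), which was the largest among the 10 genes, and sh#1 was higher than sh#2 by 0.36 ± 0.07 (SE) on the log2 scale (q = 2.46e-05).

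SESN2 (chr1:28259518-28282491, plus strand) encodes Sestrin 2, a leucine-binding protein that restrains mTORC1 when leucine is short. It measured 24.0, 27.1 and 26.3 normalized CPM in shCtrl, 142, 120 and 116 in sh#1 and 92.4, 88.9 and 69.2 in sh#2. The groups did not overlap here either. SESN2 rose 4.07-fold (95% interval 2.98 to 5.56, q = 1.96e-05), and sh#1 was higher than sh#2 by 0.59 ± 0.10 (SE) on the log2 scale (q = 1.50e-05).

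CHAC1 (chr15:40952962-40956512, plus strand) encodes an enzyme that degrades glutathione and is a target of the ATF4 and CHOP branch. It was the least counted gene, with 6, 11 and 10 counts in shCtrl, 20, 20 and 11 in sh#1 and 6, 12 and 10 in sh#2. It passed the low-count filter only through the CDH11 KD libraries, of which 4 reached the filter's level, against 1 in shCtrl. The sh#2 libraries overlapped shCtrl and 1 sh#1 library lay within the shCtrl range of 2.36 to 4.51 normalized CPM. Its fitted log2 fold change was 0.67 for both hairpins, 0.92 for sh#1 and 0.32 for sh#2, and these are given as values only, since a rise was built into its entry.

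ASNS (chr7:97851677-97872542, minus strand) encodes asparagine synthetase. It measured 57.9, 60.3 and 51.4 normalized CPM in shCtrl, 146, 142 and 145 in sh#1 and 112, 101 and 103 in sh#2. The 3 groups were apart. ASNS rose 2.21-fold (95% interval 1.80 to 2.72, q = 2.68e-05), with sh#1 above sh#2 by 0.46 ± 0.09 (SE) on the log2 scale (q = 7.72e-05).

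Of the serine pathway genes, PSAT1 differed most clearly between hairpins. PHGDH (chr1:119648411-119744218, plus strand), the first enzyme of serine synthesis from glycolysis, measured 52.0, 53.3 and 46.9 normalized CPM in shCtrl, 65.6, 80.4 and 68.0 in sh#1 and 87.7, 87.9 and 86.2 in sh#2. The 3 groups did not overlap, and PHGDH rose 1.56-fold (95% interval 1.30 to 1.87, q = 0.00207). PSAT1 (chr9:78297125-78330093, plus strand), the aminotransferase of the next step, measured 85.8, 91.4 and 83.1 in shCtrl, 113, 131 and 127 in sh#1 and 78.4, 79.8 and 92.0 in sh#2. All 3 sh#1 libraries stood above shCtrl, and the sh#2 libraries overlapped it. PSAT1 rose with sh#1 (log2 fold change 0.51 ± 0.09 SE, q = 2.70e-05), its value with sh#2 was -0.06 (95% interval -0.26 to 0.15, q = 0.70), and the difference between hairpins was 0.57 (q = 7.19e-06). Pooled, the hairpins gave 0.26 (q = 0.28), and a fit with 3 groups that averages the hairpins gave 0.23 (q = 0.032, with 0.032 to 0.51 over 16 alternatives).

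SHMT2 (chr12:57229573-57234935, plus strand), the mitochondrial enzyme that splits serine into glycine and a one-carbon unit, measured 99.6, 90.2 and 99.8 normalized CPM in shCtrl. It measured 120, 130 and 111 in sh#1 and 101, 100 and 104 in sh#2. All sh#1 libraries and all sh#2 libraries were above the shCtrl maximum, the latter by little. SHMT2 rose with sh#1 by 0.31 ± 0.09 (SE) on the log2 scale (q = 0.0076), a call lost without sh#1 library 2 (q = 0.062) or shCtrl library 2 (q = 0.056), and had 0.08 (95% interval -0.11 to 0.27, q = 0.56) with sh#2. Their difference of 0.24 did not pass the threshold (q = 0.052) but passed in 4 of 15 alternatives (q = 0.027 to 0.24 over them), and for both hairpins together the value was 0.21 (q = 0.19).

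**Figure D1:**
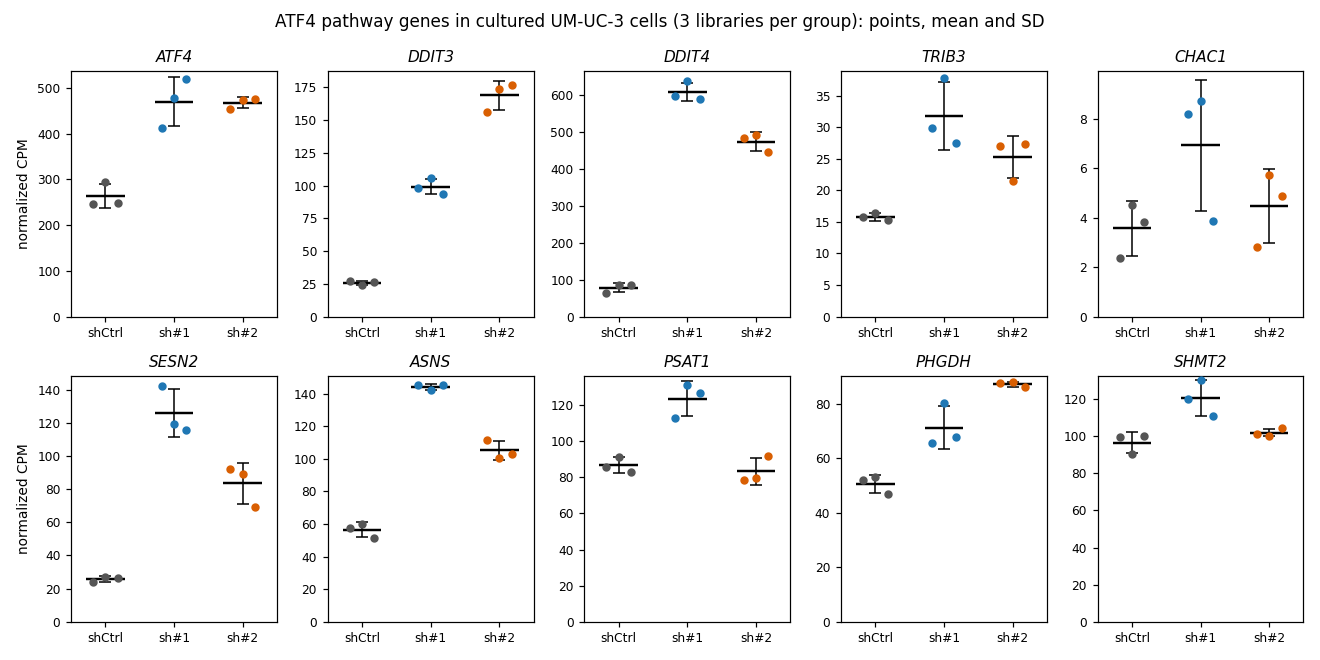
Normalized CPM (y axis, linear from 0) of each gene in the 3 shCtrl, 3 sh#1 and 3 sh#2 libraries of cultured cells; points are libraries, the thick line is the mean and bars are SD. DDIT3, DDIT4, SESN2, ASNS and PHGDH show 3 separate groups. TRIB3 and SHMT2 do too, by little between the hairpins for TRIB3 and between shCtrl and sh#2 for SHMT2. CHAC1 overlaps between groups and PSAT1 is raised in sh#1 only. The share of all genes tested with 3 separate groups was not counted.

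Taken singly, sh#1 raised 9 of the 10 genes, all but CHAC1, where 11.8% of all genes tested were higher and 10.6% lower. sh#2 raised 7 of the 10, leaving out CHAC1, PSAT1 and SHMT2, where 19.5% of all genes were higher and 18.8% lower. Both comparisons use the same shCtrl libraries. Tested directly against each other, sh#1 exceeded sh#2 in DDIT4, SESN2, ASNS and PSAT1, and sh#2 exceeded sh#1 in DDIT3 and PHGDH. Over all genes tested, 11.2% were higher in sh#1 than in sh#2 and 13.5% lower. The PHGDH difference, -0.30 ± 0.11 (SE) on the log2 scale, was near the threshold (q = 0.035) and passed in 8 of 15 alternative analyses; q ran from 0.013 to 0.16 over them, and DESeq2 called 5 of the 6 genes.

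**Figure D2:**
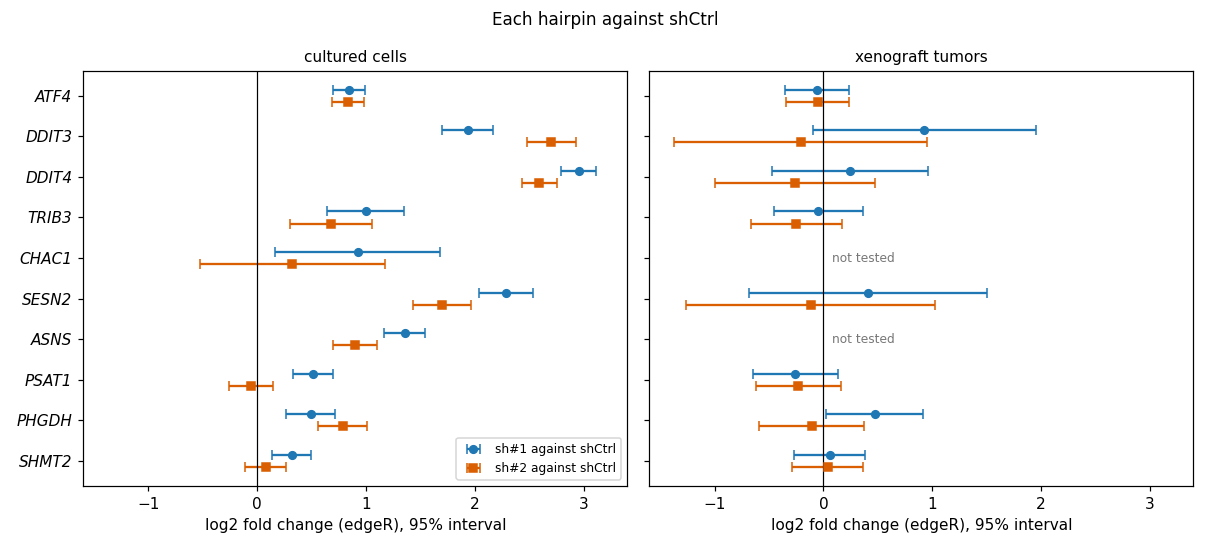
Log2 fold change (x axis) of each gene (y axis) for sh#1 (circles) and sh#2 (squares) against shCtrl, with 95% intervals from edgeR, in cultured cells (left) and tumors (right). In cultured cells the intervals of ATF4 coincide and those of DDIT3, DDIT4, SESN2, ASNS and PSAT1 are apart; in tumors all intervals but PHGDH with sh#1 span 0, and CHAC1 and ASNS were not tested.

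Around these genes, lists of related genes of the pathway were counted in cultured cells. Of 77 tested list genes 4 (ATF3, DNAJB9, CASTOR1 and CASTOR2) passed the low-count filter only through the group where they were higher, so a difference was built into their entry and they are given as values only. Of the other 73 genes 24 rose and 2 fell with CDH11 KD, where 9.12% of all genes tested were higher and 8.32% lower. Taken singly, sh#1 had 33 of the 73 higher and 9 lower (11.8% and 10.6% of all genes). For sh#2, 28 were higher and 9 lower (19.5% and 18.8%). Without shCtrl library 1 or without shCtrl library 3, 17 of the 77 genes passed in place of 30, with those 4 genes included. Over all genes tested, 963 passed without library 1 and 882 without library 3, in place of 1719.

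Among partners and regulators of ATF4, 3 of 7 rose and 1 fell (9.12% and 8.32% of all genes), leaving out ATF3. ATF3, a stress-induced repressor, went from 1.32 ± 0.46 (SD, n = 3) normalized CPM in shCtrl to 5.36 ± 1.15 in sh#1 and 6.66 ± 2.06 in sh#2 (log2 fold change 2.13), from 2 to 4 counts per shCtrl library and 10 to 19 with CDH11 KD. NFIL3, a basic leucine zipper repressor, went from 15.9 ± 2.74 to 54.3 ± 7.02 and 47.1 ± 8.49 (log2 fold change 1.68, q = 3.70e-06). CEBPB, a C/EBP partner of ATF4, went from 103 ± 12.5 to 322 ± 28.2 and 207 ± 24.1 (1.36, q = 0.00185). ATF5, a factor close in sequence to ATF4, fell by 1.13 on the log2 scale; ATF5 and CEBPG (0.66), which also rose, are named outside the rule, after their values were seen.

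Of the integrated stress response's own machinery, the 4 eIF2 kinases, the eIF2B subunits and eIF2 phosphatase subunits among them, 1 of 14 tested genes rose, near the 9.12% of all genes. With sh#1 2 were higher and 1 lower (11.8% and 10.6% of all genes), and with sh#2 1 was higher and 4 lower (19.5% and 18.8%). The gene that rose with CDH11 KD was PPP1R15A (GADD34), the inducible subunit that returns eIF2 to its unphosphorylated state, from 30.8 ± 5.46 normalized CPM in shCtrl to 115 ± 15.4 in sh#1 and 130 ± 8.24 in sh#2 (log2 fold change 1.99, q = 2.47e-08).

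In amino acid handling, 8 of 14 cytosolic tRNA synthetase genes (a list that includes the tRNA exporter XPOT) rose and none fell. For this list and those below, 9.12% of all genes tested were higher with CDH11 KD and 8.32% lower. With sh#1 12 synthetase genes were higher and 0 lower (11.8% and 10.6% of all genes), and with sh#2 9 were higher and 1 lower (19.5% and 18.8%). CARS1, for cysteine, rose by 0.77 on the log2 scale (q = 4.01e-05), GARS1, for glycine, by 0.60 (q = 0.000475) and EPRS1, for glutamate and proline, by 0.57 (q = 0.000738). Without shCtrl library 3 the synthetase count was 3, and without library 1 it was 4. Calls over all genes fell from 1719 to 882 and 963 in these fits. Of 11 genes of amino acid synthesis and one-carbon metabolism 4 rose, among them GPT2, which makes alanine from pyruvate (1.21, q = 9.88e-05), MTHFD2, the mitochondrial folate enzyme downstream of SHMT2 (0.85, q = 3.21e-06), and ALDH18A1 of proline synthesis (0.59, q = 0.0060, a call that was lost without shCtrl library 1). With sh#1 7 of these 11 genes were higher and 0 lower (11.8% and 10.6% of all genes). With sh#2 4 were higher and 0 lower (19.5% and 18.8%), and the list's median log2 fold change was -0.0013. Of 7 amino acid transporter genes 2 rose: SLC3A2 (1.11, q = 0.000118) and SLC7A11 (0.92, q = 0.0033), which form the cystine importer together. With sh#1 5 transporter genes were higher and 1 lower (11.8% and 10.6% of all genes). With sh#2 2 were higher and 2 lower (19.5% and 18.8%).

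Of 6 other ATF4 targets 5 rose (9.12% of all genes), and 2 did without any 1 of the shCtrl libraries. Calls over all genes then fell from 1719 to between 882 and 974. With sh#1 4 rose (11.8% of all genes), and with sh#2 5 rose (19.5%). In the direct test of sh#1 against sh#2, 0 were higher and 4 lower (11.2% and 13.5% of all genes). STC2, a secreted glycoprotein, went from 23.8 ± 1.72 normalized CPM to 59.1 ± 2.90 in sh#1 and 57.8 ± 8.85 in sh#2 (log2 fold change 1.29, q = 3.48e-06). ERO1A, an oxidase of the endoplasmic reticulum, went from 128 ± 2.96 to 266 ± 16.1 in sh#1 and 677 ± 28.7 in sh#2 (1.88, q = 0.033), with -1.35 for sh#1 against sh#2. VLDLR, a lipoprotein receptor, rose by 0.95 (q = 0.031). The joint calls of ERO1A and VLDLR were each lost in 7 of 16 alternatives.

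Of 4 tested genes that restrain mTORC1, CASTOR1, an arginine sensor, had a log2 fold change of 1.22 and its relative CASTOR2 one of -1.25, and the other 2 passed no threshold. Counts were low, at 4 to 9 per shCtrl library and 7 to 17 with CDH11 KD for CASTOR1, and 13 to 22 and 5 to 10 for CASTOR2. Chaperones and genes of the other branches of the unfolded protein response were 1 higher and 1 lower of 12, leaving out DNAJB9 (log2 fold change 0.86), near the shares of 9.12% and 8.32% over all genes: HERPUD1 rose by 0.42 (q = 0.038) and SDF2L1 fell by 0.43 (q = 0.025). The call of HERPUD1 was lost in 9 of 16 alternatives, DESeq2 and each shCtrl library left out among them, and that of SDF2L1 in 2, without shCtrl library 1 or 3. HSPA5, the main chaperone of that compartment, is named after its values were seen. Its log2 fold change was -0.04 for both hairpins and -0.34 for sh#1 against sh#2 (past the threshold). With sh#1 0 of these 12 genes were higher and 6 lower (11.8% and 10.6% of all genes), and with sh#2 4 were higher and 1 lower (19.5% and 18.8%). In the direct test of sh#1 against sh#2, 6 were lower and none higher, where 13.5% of all genes tested were lower and 11.2% higher.

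**Figure D3:**
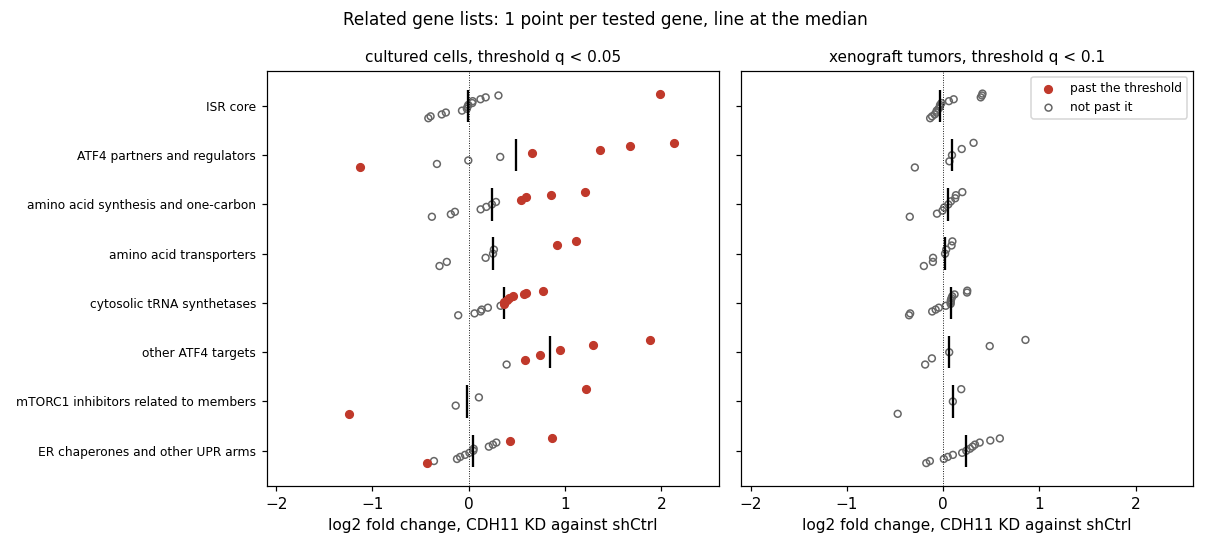
Log2 fold change with CDH11 KD (x axis) of each tested gene in 8 related lists (y axis), in cultured cells (left) and tumors (right); filled points passed the threshold (ATF3, DNAJB9, CASTOR1 and CASTOR2 among them) and the black line is the list's median. The tRNA synthetases have a median of 0.37 in cultured cells and 0.08 in tumors, and no point passed in tumors.

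In tumors no member passed the threshold of q under 0.1 in any of the 4 comparisons. Of the 10 genes 8 had enough human counts to be tested; ASNS (1 to 6 counts per tumor) and CHAC1 (0 to 4) did not. Over all 9184 genes tested, 1.51% were called in either direction for CDH11 KD, 1.48% for sh#1, 2.68% for sh#2 and 1.19% for sh#1 against sh#2. At an unadjusted p under 0.05 the quasi-likelihood test had 0 members for CDH11 KD, 1 for sh#1, 0 for sh#2 and 2 for sh#1 against sh#2, and DESeq2 called 0 in each. Genes without a change pass the unadjusted cut at a rate of 0.05. The share of all genes under that cut is not given here, so these counts are values only. The median log2 fold change of the 8 genes with CDH11 KD was 0.03, against 0.01 over all genes tested. In bulk tumor RNA, fewer cells of a kind and less RNA per cell cannot be told apart. Tumor and cultured tables were normalized separately, and the difference between the systems was not tested.

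ATF4 measured 189, 229, 217, 176 and 191 normalized CPM in the 5 shCtrl tumors, 258, 166, 155, 204 and 196 in sh#1 and 196, 171, 156, 274 and 162 in sh#2. The groups overlapped throughout. The log2 fold change with CDH11 KD was -0.05, with a 95% interval of -0.31 to 0.20 (q = 0.90).

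DDIT3 measured 16.0, 6.49, 36.5, 8.89 and 24.5 normalized CPM in shCtrl tumors, 74.9, 39.6, 19.1, 16.3 and 38.4 in sh#1 and 11.4, 6.72, 22.0, 14.9 and 21.0 in sh#2. Its counts were low, at 5 to 38 per tumor, and the groups overlapped. The log2 fold change was 0.46 for CDH11 KD (95% interval -0.62 to 1.55, q = 0.76), so changes up to 2.92-fold higher or down to 0.65-fold lie inside it. Leaving out 1 tumor gave 0.25 (without shCtrl tumor 2) to 0.88 (without shCtrl tumor 3). Against shCtrl the value was 0.93 for sh#1 (q = 0.48) and -0.21 for sh#2 (q = 0.91). For sh#1 against sh#2 the value was 1.14 (unadjusted p = 0.041, q = 0.47 from edgeR), in the direction opposite to the cultured cells; with no filter on low counts it had q = 0.033, and over 21 alternatives q ran from 0.033 to 0.66.

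DDIT4 measured 99.5, 81.1, 257, 256 and 204 normalized CPM in shCtrl tumors, 327, 243, 125, 200 and 191 in sh#1 and 129, 128, 174, 140 and 174 in sh#2. The shCtrl tumors alone spanned a wider range than sh#2. Its log2 fold change with CDH11 KD was 0.01 (95% interval -0.64 to 0.66, q = 0.997), against 2.78 in cultured cells.

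SESN2 measured 20.9, 13.0, 43.3, 20.5 and 16.9 normalized CPM in shCtrl tumors, 105, 24.9, 20.2, 19.6 and 18.2 in sh#1 and 9.95, 21.5, 23.0, 20.3 and 32.5 in sh#2. A single sh#1 tumor, number 1, lay far above the others. The log2 fold change with CDH11 KD was 0.17 (95% interval -0.78 to 1.12, q = 0.92) and -0.14 without that tumor, while without shCtrl tumor 3 it was 0.51.

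TRIB3 ranged from 32.9 to 41.4 normalized CPM in shCtrl tumors, 26.3 to 61.0 in sh#1 and 23.0 to 37.0 in sh#2, with a log2 fold change of -0.14 (95% interval -0.50 to 0.22). PHGDH measured 20.1, 26.0, 26.2, 19.6 and 38.3 in shCtrl tumors, 49.9, 31.6, 29.7, 35.9 and 34.3 in sh#1 and 27.0, 26.9, 12.5, 27.7 and 24.8 in sh#2. All 5 sh#1 tumors were above all 5 sh#2 tumors. The difference was 0.58 on the log2 scale, with unadjusted p = 0.016 and q = 0.34 from edgeR, and sh#1 against shCtrl gave 0.47 (unadjusted p = 0.039, q = 0.40). PSAT1 ranged from 31.1 to 46.5 in shCtrl tumors, 25.3 to 41.8 in sh#1 and 28.7 to 48.3 in sh#2, with a log2 fold change of -0.24 (95% interval -0.57 to 0.09). SHMT2 ranged from 53.6 to 76.8, 56.6 to 72.1 and 53.5 to 83.9, with 0.05 (95% interval -0.23 to 0.33). Neither gene separated the groups.

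CHAC1 had no count in shCtrl tumors 2 and 5 and in sh#1 tumors 1 and 4, where a count of 0 allows up to 3 counts, or 3.25, 4.60, 8.32 and 3.26 normalized CPM. That limit covers counting error only, as do all limits from counts here.

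**Figure D4:**
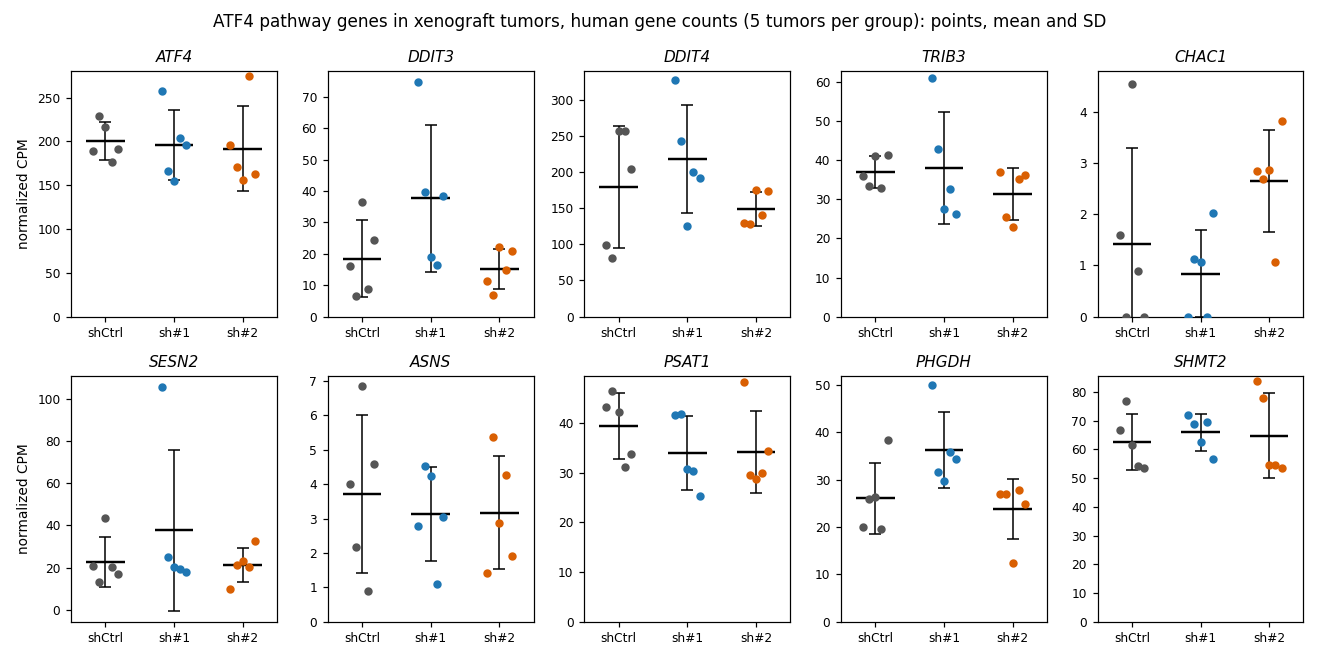
Normalized CPM (y axis, linear) of each gene in the 5 shCtrl, 5 sh#1 and 5 sh#2 tumors, human reads; points are tumors, the thick line is the mean and bars are SD. The groups overlap for every gene against shCtrl, and sh#1 tumor 1 is at 105 for SESN2.

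The spread between tumors was not even. sh#1 tumor 1 had the highest value of its group in 7 genes (ATF4, DDIT3, DDIT4, TRIB3, SESN2, PHGDH and SHMT2), and shCtrl tumor 3 the highest of its group in 5 (DDIT3, DDIT4, CHAC1, SESN2 and ASNS). The share of all genes that were highest in these tumors was not counted, so neither count is particular to the members. sh#1 tumor 1 also had the fewest human counts of all tumors, 414849, and the largest mouse share of human and mouse counts, 30.0%, where the other tumors had 10.4% to 18.8%. Mouse fibroblast markers (6 genes) gave a sum of 303 there and 633 to 1478 in the remaining sh#1 tumors. Mouse leukocyte markers summed to 222 there, the highest of the 15 tumors, with 51 to 75 in the remaining sh#1 tumors. Its summed counts of 3 mouse muscle markers were 943, against 4 to 25 in the other sh#1 tumors, 7 to 208 in shCtrl and 2 to 247 in sh#2. Its 3 mouse adipocyte markers summed to 1351, against 11 to 77 in the other sh#1 tumors, 4 to 65 in shCtrl and 8 to 233 in sh#2. The part of host tissue in these values was not tested beyond leaving the tumor out and adding each tumor's mouse-to-human count ratio to the model, under which the SESN2 value was -0.30.

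The mouse copies of the genes were counted in the same tumors. Of the 10 orthologs 2 had enough mouse counts to be tested, Atf4 (4 to 25 counts per tumor) and Ddit4 (19 to 71). Neither was called for CDH11 KD, where 0% of the 1669 mouse genes tested were called. The quasi-likelihood test gave neither an unadjusted p under 0.05, and the share of all mouse genes under that cut is not given here. Mouse counts made up 44.9% of the human and mouse counts of ASNS, 20.3% of DDIT4, 12.5% of CHAC1, 10.5% of SESN2 and 7.03% of ATF4. For PHGDH they made up 0.57%, with 2 mouse counts in all 15 tumors.

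Of the related lists 0 of 70 tested genes passed in tumors for CDH11 KD, in edgeR's test. At an unadjusted p under 0.05 there were 5, of which 2 were higher and 3 lower. Genes without a change pass that cut at a rate of 0.05, and the share over all genes is not given here. DESeq2 called 1 of the 70, VARS1. Under alternatives 1 list gene passed at times: VARS1, the valine tRNA synthetase and named after its values were seen, was lower in 6 of 23 (q = 0.025 to 0.090 in those), and HERPUD1 was higher in 1, with no filter on low counts (0.56, q = 0.077). Among the genes named in cultured cells, PPP1R15A had 0.41 (q = 0.63), CEBPB 0.19 (q = 0.83), MTHFD2 -0.06 (q = 0.88), SLC7A11 0.10 (q = 0.95) and CARS1 -0.34 (q = 0.34) in tumors. Taken singly, sh#1 lowered VARS1 against shCtrl (-0.43, q = 0.087). NFIL3 had 10.4 ± 2.32 (SD) normalized CPM in shCtrl tumors, 20.2 ± 9.78 in sh#1 and 6.91 ± 3.52 in sh#2. Its log2 fold change was 1.38 for sh#1 against sh#2. These are given as values only, since entry through the low-count filter by sh#1 alone was not examined in tumors.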

How the data were processed

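Raw read counts for each gene, without normalization, were deposited by the authors. Reads of cultured cells were trimmed in CLC Genomics Workbench and mapped to hg38 with RaNAseq; tumor reads were trimmed with Trim Galore and mapped with HISAT2. The counting tool, the annotation and how human and mouse reads were separated are not given in the sources used here, so conserved genes may share reads between species. 13 cultured-cell genes were not analysed here. Counts were fitted whole in edgeR 4.0.16 (R 4.3.3; TMM, filterByExpr, robust quasi-likelihood test, Benjamini-Hochberg), with CDH11 KD as both hairpins against shCtrl, and a fit with 3 groups for each hairpin and their difference. Thresholds were 0.05 in cultured cells and 0.1 in tumors. The test was checked on simulated data. DESeq2 1.42.0, other filters and normalization, pseudogenes summed with parent genes, omitted libraries and a host covariate were alternatives. Replicates differed beyond sampling noise. Members and lists were chosen with earlier results of these data known; of each list, the 3 genes with the largest change past the threshold were named, and the 5 genes most like the members, of which 1 in tumors is not reported here.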

Additional observations from a re-analysis of the deposited data

Results flagged for a closer look

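In 30 groups of 5 tumors, 1 per member and line, a single tumor stood far from the other 4 in 4 groups by Dixon's criterion; chance alone gives about 1 in 20. SESN2 in sh#1 tumor 1 was at 105 normalized CPM, where the others of its group were at 18.2 to 24.9, and SESN2 in shCtrl tumor 3 was at 43.3, where the others were at 13.0 to 20.9. PSAT1 in sh#2 tumor 1 was at 48.3 (others 28.7 to 34.4). PHGDH in sh#2 tumor 3 was the low one, at 12.5 (others 24.8 to 27.7).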

How the results depend on the processing

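In cultured cells the count of members called stayed at 7 to 8 for CDH11 KD over 16 alternatives, and over 15 at 8 to 10 for sh#1 (8 to 9 without CHAC1), 7 for sh#2 and 5 to 7 for sh#1 against sh#2. Leaving out a library took the list genes called to between 17 and 31. In tumors 0 members were called in all alternatives but one: with no low-count filter 1 (DDIT3) was called for sh#1 against sh#2. In tumors 1 list gene was called with DESeq2, upper quartile normalization, a minimum of 10 counts, no filter, and the mean of both hairpins, and 0 to 1 without a tumor. CHAC1 and ASNS had too few tumor counts to be tested. The motif TGATGCAA or TGATGAAA alone was in windows of 1 member each, against 1.08% and 1.37% of all genes with a window. TGATG was in windows of 3 members, against 37.7% of all genes with a window. Replicate numbers did not pair the samples (0 of 9 correlations of same-numbered libraries over 0.1 in cells, 2 of 15 in tumors). With the replicate block the members called were 7, 9, 7 and 6 in cells (CDH11 KD, sh#1, sh#2, sh#1 against sh#2) and 0 in tumors, and 23 list genes were called in cells. The share of all genes called with the block is not given here. Counts of list genes in cells in this section are out of all 77, with ATF3, DNAJB9, CASTOR1 and CASTOR2 included where they passed. Over all genes, against 1719 calls for CDH11 KD in cells, the mean of both hairpins gave 3291 and leaving out a library 882 to 1873; DESeq2 gave 1346 against 2209 for sh#1 and 1533 against 2431 for sh#1 against sh#2. In tumors the counts of 139, 136, 246 and 109 (CDH11 KD, sh#1, sh#2, sh#1 against sh#2) ranged over 48 to 399, 69 to 287, 126 to 552 and 44 to 173.

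All values that changed sign belonged to differences that passed no threshold, and the cause was not tested. The covariate is each tumor's mouse-to-human count ratio. The log2 fold change of ATF4 for sh#1 against sh#2 in tumors was 0.0090 with DESeq2, 0.0075 with no filter, 0.00038 with the covariate, 0.012 with the replicate block and 0.015 with upper quartile normalization. DDIT4 with CDH11 KD in tumors was -0.0084 with the mean of both hairpins, -0.0021 with a minimum of 10 counts, -0.016 with no filter, -0.12 with the covariate and -0.0086 with upper quartile normalization. PSAT1 for sh#1 against sh#2 in tumors was 0.0049 with the covariate and 0.0046 with the replicate block. With the covariate SESN2 was -0.30 for CDH11 KD and -0.052 for sh#1, and SHMT2 was -0.0013 for CDH11 KD and -0.024 for sh#2. Leaving out a library or tumor gave ATF4 -0.072 to 0.094 for sh#1 against sh#2 in cells. In tumors it gave, for CDH11 KD, DDIT4 -0.17 to 0.18, SESN2 -0.14 to 0.51 and SHMT2 -0.010 to 0.13. For sh#1 it gave ATF4 -0.14 to 0.018, SESN2 -0.14 to 0.74, SHMT2 -0.00088 to 0.14 and TRIB3 -0.18 to 0.063. For sh#2 it gave ATF4 -0.24 to 0.013, DDIT3 -0.43 to 0.20, PHGDH -0.21 to 0.086, SESN2 -0.26 to 0.21 and SHMT2 -0.067 to 0.12. For sh#1 against sh#2 it gave ATF4 -0.088 to 0.18, PSAT1 -0.13 to 0.12, SESN2 -0.022 to 0.70 and SHMT2 -0.043 to 0.12.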

Other observations

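Genes outside the members were ranked by how closely their log2 CPM followed the mean standardized level of the members. For cultured cells this score held 10 members, among them CHAC1, which passed the low-count filter only through the CDH11 KD libraries. In cultured cells, over 5388 genes averaging 50 counts or more, the 5 closest were SAP30, a subunit of a histone deacetylase complex (Pearson r = 0.992 over 9 libraries), HES1, a repressor downstream of Notch (0.991), IER3, an immediate early gene (0.986), PCCB, a subunit of propionyl-CoA carboxylase (0.983), and CKS1B, a cell cycle kinase subunit (0.982). The 9 libraries fall into 3 groups, so these values reflect differences between groups and are a description only. HES1 rose with CDH11 KD by 2.70 on the log2 scale and IER3 by 2.17. In tumors, over 3199 genes and 15 tumors with 8 members in the score, the closest genes included BTG1, an antiproliferative gene (0.897), KLF6, a zinc finger factor (0.842), BNIP3L, a mitophagy receptor (0.837), and ERO1A (0.828). None of these named genes was called for CDH11 KD in tumors. How far sh#1 tumor 1, the highest of its group in 7 members, carries the tumor ranking was not tested, so it is a description only.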
